A study of Mus musculus with 10 samples.

Results

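The tissue left after 2 weeks of doxycycline was compared between KrasT and MycT pancreatic tumours, 2 mouse tumour models named as in the labels. All doxycycline libraries of both models were taken by their labels, which gave 3 KrasT and 2 MycT libraries, 5 of the 10 libraries in the series. The tumours had been transplanted into the pancreas of athymic nude mice, and the treated hosts drank doxycycline at 100 ug/ml with 2.5% sucrose for 14 days. The other 5 libraries, 3 KrasT and 2 MycT, came from hosts without doxycycline and served as the untreated comparison. Every library was made from total RNA of a frozen piece of whole tissue from its own animal. For 1 of the 2 untreated MycT libraries the animal number in the table matches no label, and it was placed by model and treatment alone. How the transgenes were made and in which cells they act is not in the labels, nor whether untreated hosts drank sucrose, and no ages are given. The series concerns tumours that become dormant when their oncogene is switched off, and autocrine IGF1 in that state. The comparison here asks how alike the residual tissue is in the 2 models and which differences between untreated tumours are still seen.

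Doxycycline is the usual switch of tetracycline-controlled transgenes, so a tumour driven by such a transgene can be deprived of its oncogene while it stays in place. What remains of a regressed pancreatic tumour is generally a mixture of dormant ductal cells, fibroblasts and their matrix, vessels, macrophages and other leukocytes. Pieces cut from the pancreas can also carry acinar, islet, fat or muscle tissue. In whole tissue, fewer cells of a type and less RNA per cell cannot be told apart.

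Expression was read as FPKM (fragments scaled by transcript length and library size), joined by gene symbol for 23924 genes. The KrasT and MycT values stand in 2 tables that were deposited separately, so the model and the table cannot be told apart. All 10 libraries were therefore scaled together by the median ratio over the 13855 genes above 0 in every library, and all values below are scaled FPKM. Total FPKM before scaling was 513949 to 569272 in the doxycycline libraries and 789672 to 1517330 in the untreated ones. Read totals are unknown. Judged by the steps between low values, depth relative to KrasT replicate 1 was 1.43 in the other 2 KrasT doxycycline libraries and 0.792 and 0.58 in the MycT ones, so low values are coarser in MycT. KrasT replicate 1 and MycT replicate 2 had the ribosomal RNA precursor Rn45s at 17238 and 20880 FPKM as deposited, against 546 to 2231 in the other 8 libraries. With 3 libraries against 2, an exact permutation test of 1 gene reaches p = 0.2 at best, so tests rest on limma with a spread shared across genes.

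After doxycycline few genes passed the test between the residual tissues of the 2 models. With 3 libraries against 2, a gene that did not pass is not shown to be alike in both. Without overlap, 12.0% of the genes tested were higher in KrasT and 14.9% were higher in MycT. Of 14157 genes tested, 8 passed limma at an adjusted p of 0.05, which is 0.0565% of them. Higher in KrasT were 3 genes (0.0212%), a tryptase and a carboxypeptidase of mast cells and a cadherin, and 5 genes were higher in MycT (0.0353%). Without adjustment 736 genes (5.2%) had p under 0.05. With so few calls, a list of genes without a call is not set apart from all genes. In untreated tumours the same comparison called 2953 genes (20.9%), 1297 higher in KrasT (9.16%) and 1656 higher in MycT (11.7%). The count after doxycycline moved with single libraries: it was 11, 2 and 3 without KrasT replicate 1, 2 and 3, and 0 and 14 without MycT replicate 1 and 2. Without untreated KrasT replicates 1, 2 and 3 it was 3, 1 and 1, and it was 32 without either untreated MycT library. Without the 2 libraries of high Rn45s it was 9. Of the 8 genes themselves, 4, 1 and 1 kept the call without KrasT replicate 1, 2 and 3, 0 and 2 without MycT replicate 1 and 2, and all 8 without either untreated MycT library.

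The sizes of the differences shrank with the count. The median absolute KrasT minus MycT difference was 0.27 on the log2(scaled FPKM + 1) scale after doxycycline and 0.69 in untreated tumours. Differences over 1 were found for 1089 genes (7.69%) after doxycycline and for 4985 (35.2%) untreated. The median spread within a group was also smaller after doxycycline, with an SD of 0.286 in KrasT and 0.264 in MycT against 0.426 and 0.376 untreated. The median difference of all genes was -0.03 in both states, and without scaling between libraries it was 0.18 after doxycycline and 0.14 untreated.

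Library against library, pairs across the models overlapped in part with pairs within a model after doxycycline. Across the tested genes, Pearson r was 0.831 to 0.924 between KrasT and MycT doxycycline libraries, with a median of 0.882. It was 0.874 to 0.936 within KrasT and 0.883 within MycT. Untreated, r between models was 0.731 to 0.829. These values describe pairs that share libraries, and they carry no test. The most alike pair across the models was KrasT replicate 1 with MycT replicate 2, the 2 libraries of high Rn45s (r = 0.924), and it exceeded the r of MycT replicate 2 with its own MycT partner. The least alike pair was KrasT replicate 1 with MycT replicate 1 (r = 0.831).

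**Figure D1:**
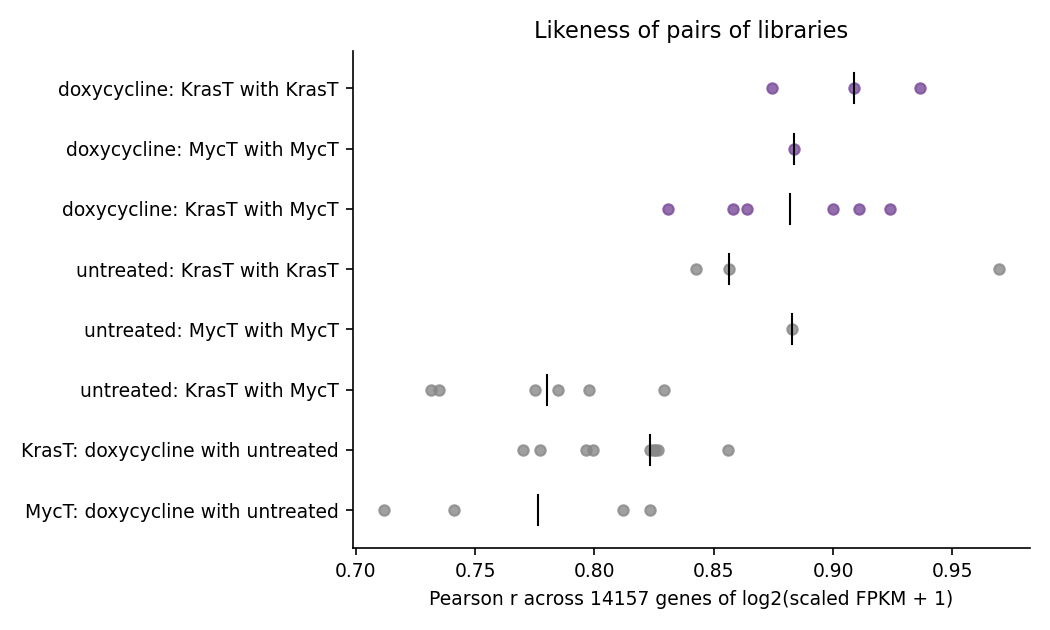
Pearson r of log2(scaled FPKM + 1) across 14157 genes for every pair of libraries of the named kinds, with 1 point per pair and a line at the median. After doxycycline the KrasT with MycT pairs lie between 0.831 and 0.924, with 3 of 6 below every pair within a model (0.874 to 0.936), while untreated pairs of the 2 models lie between 0.731 and 0.829.

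Among the most abundant transcripts of the residual tissue, Eef1a1 and Tpt1 had similar levels in the 2 models. Spp1, also among the most abundant, was higher in KrasT without overlap, with its values given below beside the ductal genes. Eef1a1, a translation elongation factor, was at 4115, 5338 and 4086 in KrasT and 4115 and 3940 in MycT. Tpt1, a growth-related translation gene, was at 4300, 5770 and 6023 in KrasT and 6304 and 4303 in MycT. These groups overlap. Apoe, the lipid carrier of macrophages and other cells, ranged from 1454 to 13733 in KrasT and was 3269 and 10745 in MycT, highest in KrasT replicate 1 and MycT replicate 2. Clu, the secreted chaperone clusterin, showed the opposite order, at 474, 4032 and 3014 in KrasT and 5050 and 1418 in MycT.

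RNA of muscle, acinar, fat and islet tissue was high in some libraries and low in others, and which tissue differed between libraries of each model. Whether it came from tissue next to the tumour was not tested. Skeletal muscle genes, 20 in the list, summed to 8871 in KrasT replicate 2 and 12751 in MycT replicate 1, against 37.9 to 439 in the other 3. Ckm, the muscle creatine kinase, was 592 and 654 in those 2 libraries and 8.35, 30.9 and 1.46 in the others. None of the 20 muscle genes passed the test between models, where 0.0565% of all genes did, so this does not set the list apart. None had groups that did not overlap, beside 12.0% of all genes higher in KrasT and 14.9% higher in MycT without overlap.

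Acinar digestive enzyme genes summed to 23039 in KrasT replicate 3, against 571 and 162 in the other KrasT libraries and 291 and 2637 in MycT. That was 4.48% of all scaled FPKM in replicate 3. Cela2a, an elastase, was 44, 9.1 and 3202 in KrasT and 18.5 and 117 in MycT. Groups overlapped for all 21 acinar genes tested, where 12.0% of all genes were higher in KrasT and 14.9% higher in MycT without overlap.

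Fat and islet genes followed another split. White adipocyte genes summed to 3955 in KrasT replicate 1 and 2377 in MycT replicate 2, and to 245 to 923 in the other 3. Adipoq, the fat hormone adiponectin, was 122, 3.27 and 0.912 in KrasT and 17.5 and 71.5 in MycT. Ins2, an insulin gene, was 5281, 4.3 and 1649 in KrasT and 14.4 and 604 in MycT. Ins1 and Ins2 are close copies, so reads may be split between them. The 2 libraries high in fat were also those of high Rn45s, and the 2 high in muscle were the other pair that crossed the models. Without the pair high in muscle, 1 gene was called after doxycycline, and Tpsab1 was no longer among the calls (limma adjusted p = 0.176).

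**Figure D2:**
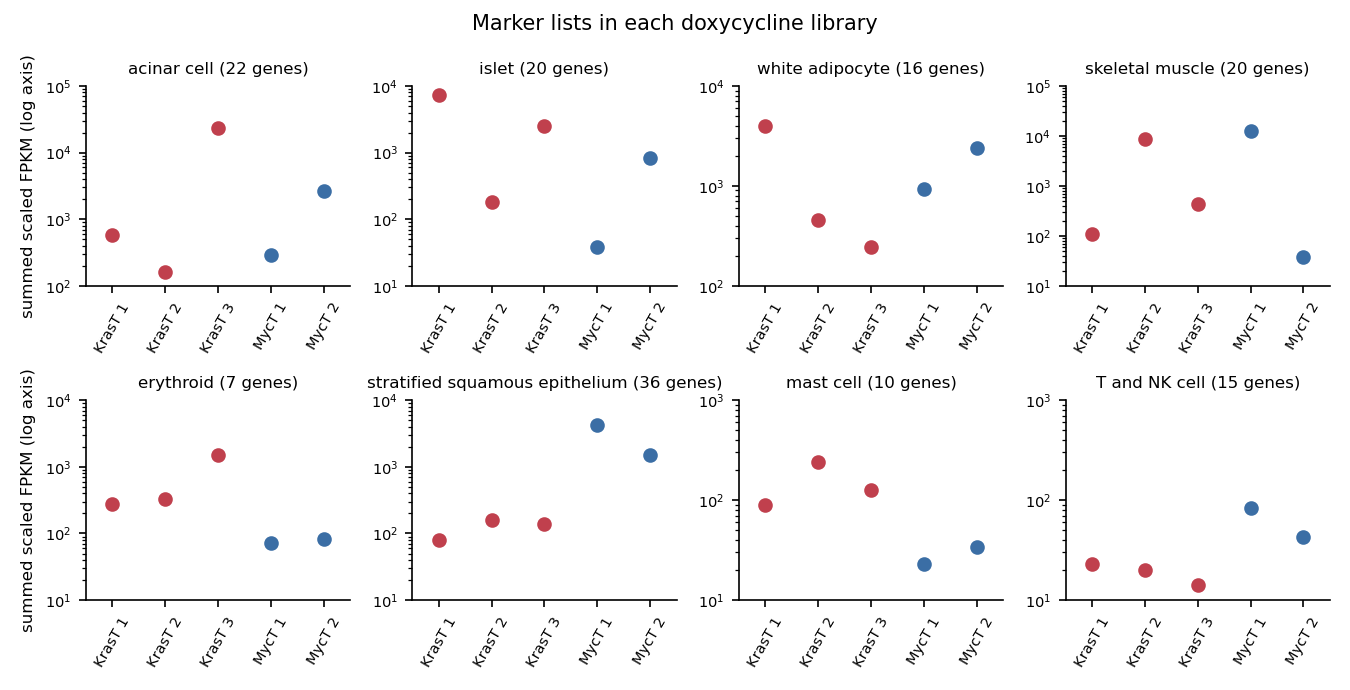
Summed scaled FPKM of 8 marker lists (log axis) in each doxycycline library, red for KrasT and blue for MycT. Muscle is high in KrasT 2 and MycT 1, acinar genes in KrasT 3 and fat in KrasT 1 and MycT 2. The erythroid, squamous, mast cell, and T and NK cell sums separate the models.

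The genes that stood out in 1 library alone are given next, from the 8 widest gaps per library. In KrasT replicate 1 they included the islet hormones Gcg (506, at most 66.7 elsewhere after doxycycline) and Iapp (241, at most 59), Gpnmb, a gene of lipid-laden macrophages (573, at most 158), and the glucocorticoid-responsive genes Fkbp5 (71.4, at most 14.7) and Tsc22d3 (352, at most 95.1). KrasT replicate 2 led in the slow muscle genes Myl2 (157, at most 53) and Tnni1 (71.3, at most 27.4), in Chil4, a chitinase-like protein (51.5, at most 2.76), and in the mast cell protease Mcpt1 (27.4, at most 7.48). The 8 widest gaps of KrasT replicate 3 were all genes of exocrine secretion, among them the lipase Pnlip (1946, at most 31.3) and the carboxypeptidase Cpb1 (644, at most 13.9).

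MycT replicate 1 held gene products of other secretory epithelia. Cym, the milk-clotting protease chymosin, was at 5161 there and at most 19.1 in the other doxycycline libraries. Ltf, the iron-binding lactoferrin of neutrophils and glands, was at 925 against at most 14.3. The Paneth cell defensins Defa6 and Defa24 were at 43.2 and 34.6, and both are listed at 0 in the other doxycycline libraries. MycT replicate 2 led in Cxcl13, the B cell attracting chemokine (202, at most 22.3), in the macrophage receptor Marco (26.7, at most 2.91) and in Wdr92 (239, at most 32.4).

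A mast cell gene had the lowest adjusted p between the residual tissues in the fit of all 10 libraries. Fitted on the 5 doxycycline libraries alone, neither of the mast cell calls, Tpsab1 and Cpa3, was kept. Mast cells are tissue leukocytes that store tryptases, chymases and carboxypeptidase A in granules, and they are known from the stroma of pancreatic tumours. Tpsab1, a mast cell tryptase, was 32, 71.1 and 50.1 in KrasT and 0.916 and 1.32 in MycT. Its KrasT minus MycT difference was 4.56 ± 0.34 (SE) on the log2 scale, with a limma adjusted p of 0.00521. Tpsb2, a tryptase so close in sequence that reads may be shared with Tpsab1, was 22.4, 43 and 31.4 against 1.33 and 3.48 (limma adjusted p = 0.0656). Every KrasT library lay far above both MycT libraries for both tryptases.

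Cpa3, the mast cell carboxypeptidase A, was 12.4, 18.6 and 11.9 in KrasT and 1.01 and 1.6 in MycT. The difference was 2.72 ± 0.29 (SE, limma adjusted p = 0.0439). Outside KrasT doxycycline, Cpa3 reached the filter's FPKM of 1 in MycT replicate 2 alone. Without the KrasT doxycycline libraries it would not have passed the filter on low values. Cma1, a chymase, was 18.4, 36.1 and 22.5 against 3.32 and 7.32, and Mcpt4, another chymase, was 10.9, 28.7 and 9.01 against 1.96 and 3.77. Neither passed the test (limma adjusted p = 0.158 and 0.748). Fcer1a, the IgE-binding chain of the high-affinity IgE receptor, was 1.62, 4.9 and 2.78 against 0 and 0.432. It passed the filter on low values only through KrasT doxycycline libraries.

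Of the 10 mast cell genes in the list, which lacks Tpsab1, 1 was called, 8 were higher in KrasT without overlap and 1, Kit, was higher in MycT without overlap. Across all genes 12.0% were higher in KrasT without overlap and 14.9% higher in MycT. The median difference of the list was 2.06, and it was 1.35 to 2.92 over the alternatives. Kit, the stem cell factor receptor, which other cells carry too, was 3.68, 2.27 and 1.86 in KrasT and 10.5 and 6.1 in MycT. Hdc, which makes histamine, overlapped at 5.42, 1.48 and 2.04 against 3.8 and 9.94. The summed list was highest in KrasT replicate 2 (238), the library high in muscle, and lowest in MycT replicate 1 (23), which was high in muscle too.

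In untreated tumours Cma1, Fcer1a and Ms4a2, another chain of the IgE receptor, were at most 0.494 in any library. Cpa3 was 0.367, 0.0513 and 0.1 in untreated KrasT and is listed at 0 in both untreated MycT libraries, and its model difference changed with doxycycline by 2.50 (limma interaction, adjusted p = 0.0454). Tpsab1 was 2.7, 2.32 and 2.86 in untreated KrasT and is listed at 0 in untreated MycT, and its difference of 1.86 there was called too (limma adjusted p = 0.00737). The widening of the Tpsab1 difference by 2.70 passed as well (limma interaction, adjusted p = 0.0488). The mucosal protease Mcpt2 was already present in untreated KrasT. Mcpt2 was 2.23, 640 and 97.4 in untreated KrasT and 12.7, 75.1 and 35.9 after doxycycline, against at most 0.772 in any MycT library.

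Cpa3 is shown with its promoter because it is a called mast cell gene with an entry in the RefSeq promoter table (GRCm38.p6), where Tpsab1 and Tpsb2 have none. The window spans 250 bases before to 50 after the gene start at chr3:20242132-20242431, minus strand, written 5′ to 3′ on the gene's strand. Capitals mark the letters AGATAA, a form of the motif bound by GATA factors, searched on both strands.
Cpa3: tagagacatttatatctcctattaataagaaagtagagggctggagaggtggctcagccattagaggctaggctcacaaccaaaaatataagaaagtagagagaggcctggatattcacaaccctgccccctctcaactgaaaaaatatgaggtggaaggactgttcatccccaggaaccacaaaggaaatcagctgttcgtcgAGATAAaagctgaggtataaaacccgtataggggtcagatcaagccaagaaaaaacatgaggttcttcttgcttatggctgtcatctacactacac
The window holds 1 match. Of the 8 mast cell genes with an entry, 3 hold the motif (Cpa3, Fcer1a and Ms4a2), and 11.2% of all 32851 promoters in the table do. A match describes the letters and nothing about binding.

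The third gene called higher in KrasT was Cdh16, a cadherin best known from kidney tubules. It was 3.89, 10.3 and 9.39 in KrasT and 0 and 0.0433 in MycT. The difference was 3.03 ± 0.38 (SE, limma adjusted p = 0.0496). In untreated tumours it was at most 0.508 in any library, so it passed the filter on low values only through KrasT doxycycline libraries.

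**Figure D3:**
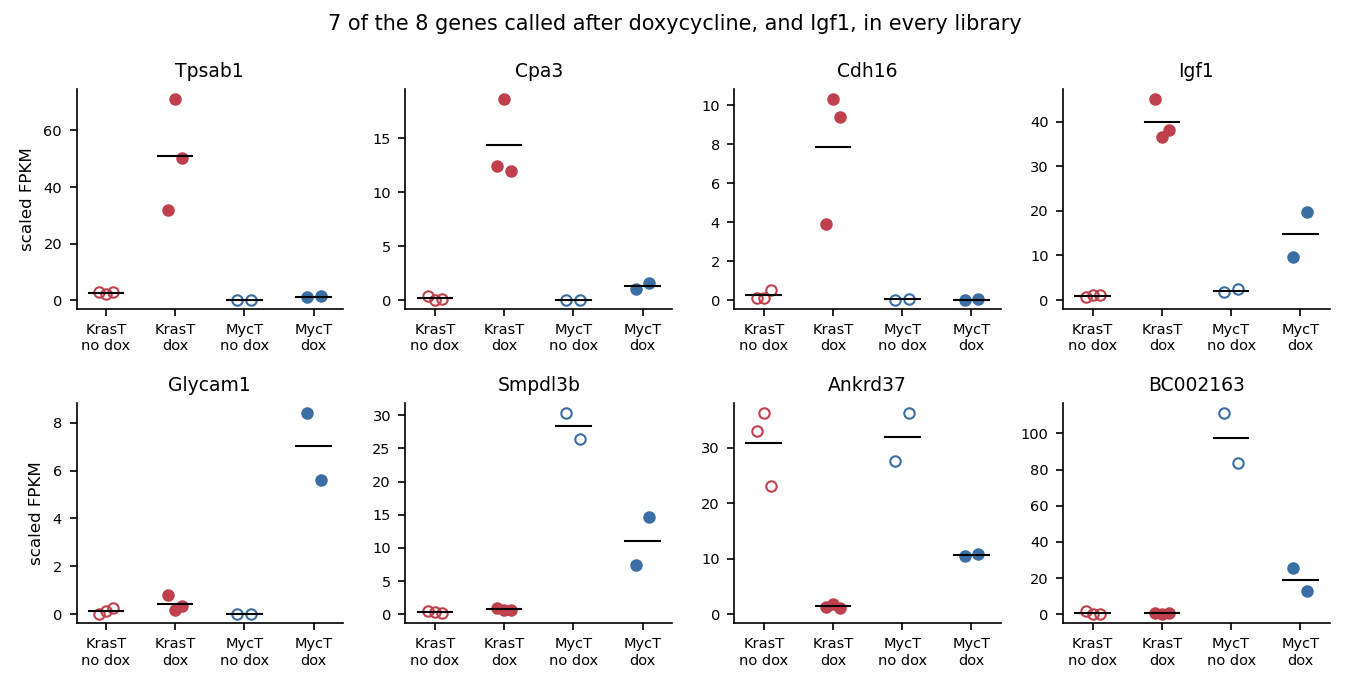
Scaled FPKM of 7 of the 8 genes called after doxycycline, and of Igf1, in every library, with open points for untreated and filled points for doxycycline libraries and a line at each mean. Filled KrasT and MycT points are apart in every panel, and Tpsab1 reaches 71.1 in KrasT against at most 1.32 in MycT.

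The 5 genes called higher in MycT were Glycam1, Smpdl3b, Ankrd37, BC002163 and 2210039B01Rik. Glycam1, a mucin-like ligand of L-selectin on the high endothelial venules of lymph nodes, was 0.788, 0.183 and 0.352 in KrasT and 8.39 and 5.62 in MycT. The difference was -2.47 ± 0.28 (SE, limma adjusted p = 0.0439). Glycam1 passed the filter on low values only through the MycT doxycycline libraries. It was at most 0.282 in any untreated library, so the difference appeared with doxycycline (limma interaction -2.66, adjusted p = 0.0327).

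Ankrd37, an ankyrin repeat gene known as a target of hypoxia-inducible factor, was 1.32, 1.89 and 1.1 in KrasT and 10.5 and 10.8 in MycT. The difference was -2.27 ± 0.29 (SE, limma adjusted p = 0.0496). Untreated levels overlapped, at 33.1, 36.2 and 23.2 in KrasT and 27.6 and 36.2 in MycT, so the gene was lower after doxycycline in all 5 libraries but lower still in KrasT (limma interaction -2.21, adjusted p = 0.0489). It was the only called member of 16 hypoxia response genes, of which 4 had a positive and 12 a negative difference, with a median of -0.17 (-0.40, -0.33 and -0.49 without KrasT replicate 1, KrasT replicate 2 and MycT replicate 1). Adm, the vasodilator adrenomedullin, was 4.34, 2.87 and 4.33 in KrasT and 11 and 10.3 in MycT. Ndrg1, another hypoxia-induced gene, went the opposite way, at 82.9, 70.2 and 70 in KrasT and 27.2 and 33.8 in MycT. Neither passed (limma adjusted p = 1).

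Smpdl3b, a lipid-modulating phosphodiesterase of the cell surface, was 0.999, 0.597 and 0.666 in KrasT and 7.37 and 14.7 in MycT. The difference was -2.71 ± 0.32 (SE, limma adjusted p = 0.0439). BC002163 was 0.549, 0.255 and 0.739 in KrasT and 25.7 and 12.7 in MycT, and 2210039B01Rik was 1.25, 0.965 and 2 against 19 and 14. These 2 fall outside the naming rule, which leaves out clone names, and are given because the call count is so small. In untreated tumours all 3 were higher in MycT as well: Smpdl3b was 30.3 and 26.4 there and BC002163 111 and 83.5, against at most 1.56 for either gene in untreated KrasT.

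Few differences were called in both states. Of the 2953 genes that separated the untreated models, 4 were called in the same direction after doxycycline, namely Tpsab1, Smpdl3b, BC002163 and 2210039B01Rik (0.0283% of genes tested). Leaving out 1 library at a time gave 0 to 22 such genes, with 0 without MycT replicate 1 and 22 without untreated MycT replicate 2. The 4 are 50% of the calls after doxycycline and 0.135% of the untreated calls. Among the 2953, the median absolute difference was 1.79 untreated and 0.30 after doxycycline. The sign was kept by 2137 of them (72.4%), 180 kept it with a difference still over 1, and 215 kept it at an unadjusted p under 0.05. Across all tested genes the 2 differences correlated at r = 0.298, which is a description across genes measured in the same 2 tables.

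**Figure D4:**
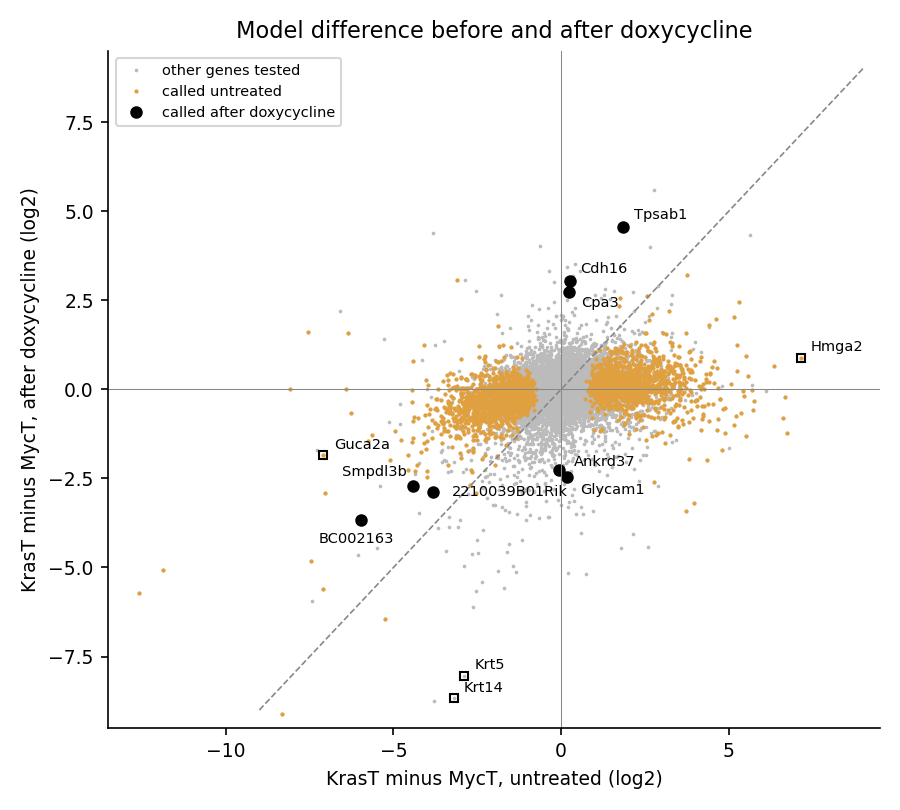
KrasT minus MycT difference (log2 of scaled FPKM + 1) of each tested gene, untreated on the x axis and after doxycycline on the y axis, with genes called untreated in orange and the 8 called after doxycycline in black. Most orange points lie near 0 on the y axis, far from the dashed line of equal differences, while Smpdl3b, BC002163 and 2210039B01Rik keep a large negative difference in both states.

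The change of the model difference with doxycycline was called for 136 genes (0.961%), 64 in the direction of KrasT (0.452%) and 72 in that of MycT (0.509%), and 132 of them were among the 2953. This count rests on single libraries: it was 3 without KrasT replicate 3 or untreated KrasT replicate 2, and 1600 without untreated KrasT replicate 1. Among the named genes higher in untreated KrasT, some came to similar low levels in both models and Adamdec1 turned to the other side. Hmga2, an oncofetal chromatin protein, was 101, 132 and 265 in untreated KrasT and at most 0.146 in untreated MycT. After doxycycline it was 2.67, 3.06 and 1.5 in KrasT and 1.47 and 0.324 in MycT (limma interaction -6.25, adjusted p = 0.0125). Prkg2, a cGMP-dependent kinase, went from 111, 114 and 174 in KrasT to 1.76, 1.05 and 0.711, beside 1.56 and 1.85 in MycT after doxycycline (interaction -6.09). Synpr, a synaptic vesicle protein, and Ptprn, a secretory granule protein, had interactions of -5.70 and -5.65. Adamdec1, a secreted metalloprotease, was 69, 14.5 and 25.2 in untreated KrasT and 1.02 and 1.36 in untreated MycT, and 0.539, 0.822 and 1.02 against 9.15 and 3.67 after doxycycline. Its interaction of -5.75 was called (limma adjusted p = 0.03), and its difference of -1.95 after doxycycline was not (limma adjusted p = 0.598).

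Genes that set untreated MycT apart came down in MycT, some to the KrasT level and some to a level still above it. Guca2a, the gut peptide guanylin, was 130 and 183 in untreated MycT and 3.36 and 3.38 after doxycycline, and at most 0.481 in any KrasT library. Its interaction of 5.23 had the lowest adjusted p of those named (limma, 0.00409), and a difference of -1.86 was still seen without passing (limma adjusted p = 0.129). Slc6a15, an amino acid transporter, was 26.8 and 27.1 untreated and 2.44 and 1.19 after doxycycline in MycT, against at most 0.0715 in any KrasT library. Bex1, a small neural signalling adaptor, was 188 and 95 in untreated MycT, and after doxycycline it overlapped at 6.86, 7.23 and 15.6 in KrasT and 16.9 and 13.8 in MycT (limma interaction 5.59, adjusted p = 0.021). Prim1, the DNA primase subunit, converged likewise from 77.4 and 75 in untreated MycT to 6.24 and 5.67 (interaction 3.42).

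The MAPK list held no called gene after doxycycline. Only 0.0565% of all genes were called, so this does not set the list apart. The MAPK pathway carries RAS signals to transcription, and its targets include phosphatases and Sprouty proteins that dampen it. Of 20 MAPK output and feedback genes, 15 were called higher in untreated KrasT (median 2.80), where 9.16% of all genes were. After doxycycline 0 were called (median 0.08), with 12 differences positive and 8 negative. That median was -0.07 without KrasT replicate 1 and -0.01 without MycT replicate 2, and 0.03 to 0.14 without each other doxycycline library. Dusp6, an ERK phosphatase, was 96.8, 189 and 127 in untreated KrasT and 1.37 and 9.58 in untreated MycT. After doxycycline it was 28.9, 16.6 and 17.3 in KrasT and 24.2 and 25.7 in MycT, and the groups overlap. Interactions were called for 5 of the 20: Dusp6 (-5.02), the transcription factor Etv4 (-4.94), the stress response gene Ier3 (-4.74), the membrane protein Emp1 (-3.25) and the feedback inhibitor Spry2 (-3.00). Among all genes, 0.961% had a called interaction.

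Myc, the growth-promoting transcription factor, was 11.9, 7.36 and 5.7 in KrasT and 10.8 and 9.74 in MycT after doxycycline. Untreated, it was 23.4, 68.6 and 34.6 in KrasT and 0.431 and 3.26 in MycT (limma interaction -4.32, adjusted p = 0.0488). It is not known whether reads of a transgene count under this symbol, so the gene does not check the labels.

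Growth genes that were higher in untreated MycT kept a smaller difference of the same sign, which did not pass the test. Mitosis genes drive chromosome segregation and are low in resting tissue. All 24 mitosis genes had a negative difference after doxycycline, 10 of them without overlap, with a median of -0.78, and 0 were called, where 23 had been called higher in untreated MycT (median -2.56). Of all genes, 14.9% were higher in MycT without overlap after doxycycline, and 11.7% were called higher in untreated MycT. The median of the mitosis list after doxycycline was -0.24 without MycT replicate 2 and -1.33 without MycT replicate 1. The list summed to 55.2, 52.3 and 29.6 in KrasT and 61.7 and 194 in MycT, with MycT replicate 2 far above the other 4 libraries. Mki67, the proliferation marker, was 1.91, 1.37 and 1.43 in KrasT and 1.95 and 5.26 in MycT. Cenpa, the centromere histone, was 6.27, 4.99 and 5.32 against 10.7 and 26.3, and Ccna2, an S and G2 phase cyclin, was 3.78, 3.84 and 2.82 against 6.88 and 15.1. MycT replicate 2 was the highest of the 5 libraries for each of these 3 genes.

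DNA replication genes followed, with 26 of 26 differences negative, 11 without overlap, a median of -0.51 and 0 called, against 25 called higher in untreated MycT. Their median was -0.25 without MycT replicate 2. Of all genes, 14.9% were higher in MycT without overlap after doxycycline, and 11.7% were called higher in untreated MycT. Of 25 ribosome biogenesis and nucleotide synthesis genes, which MYC is known to activate, 24 had a negative difference, 17 without overlap, with a median of -0.59, and 0 were called against 19 untreated. Mrto4, a ribosome assembly factor, was 18.3, 19 and 17.2 in KrasT and 29.4 and 37.9 in MycT, from 63.4, 41.1 and 40.2 and 256 and 306 untreated. Fbl, the nucleolar methyltransferase fibrillarin, was 47.1, 33.2 and 40.8 against 54.1 and 89.7. In all 24 alternatives the medians of these 3 lists stayed negative, from -1.40 to -0.24 for mitosis, -0.80 to -0.25 for DNA replication and -0.78 to -0.34 for ribosome biogenesis.

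**Figure D5:**
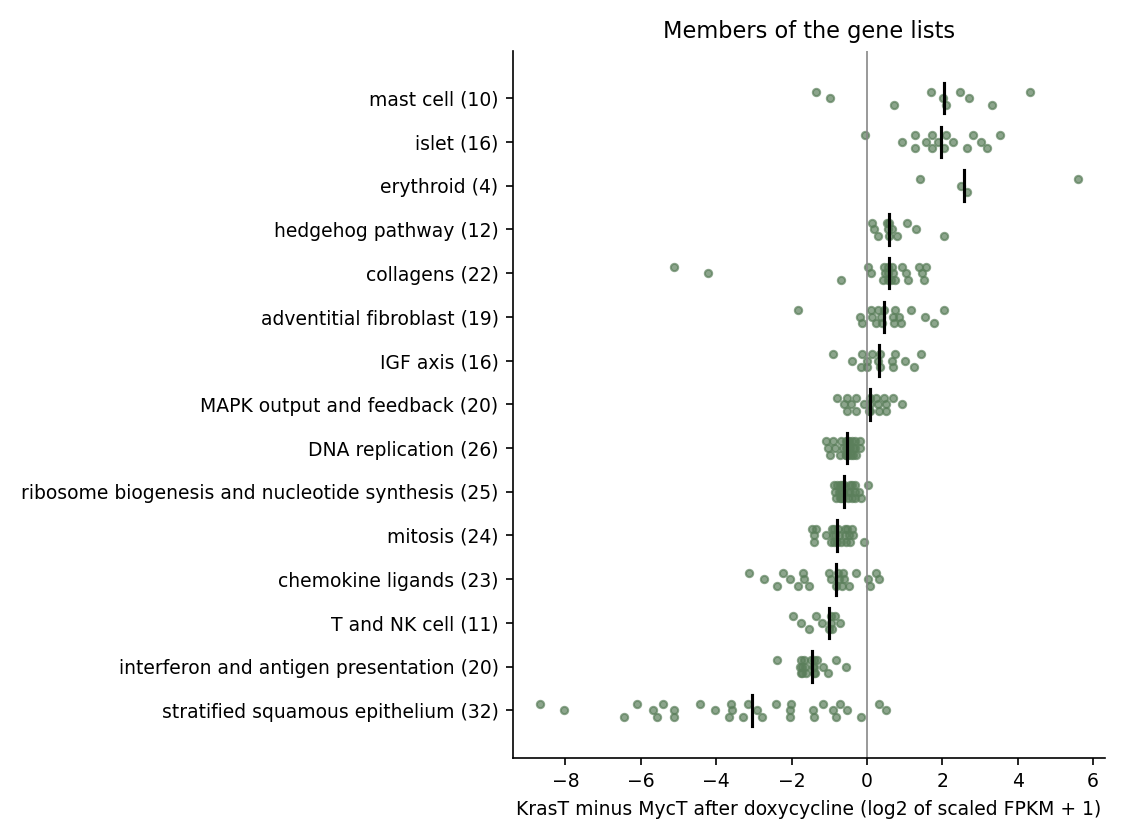
KrasT minus MycT difference after doxycycline (log2 of scaled FPKM + 1) of each tested member of 15 gene lists, 1 point per gene, with a line at the list's median and the number of genes in brackets. Mast cell, islet and erythroid genes lie mostly above 0, and interferon, T and NK cell and squamous genes mostly below it.

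At an unadjusted limma p under 0.05, which 5.2% of all genes reached after doxycycline, stood 8 of 10 mast cell genes, 8 of 11 T and NK cell genes and, of the list made with values in view, 22 of 32 squamous genes. Fewer members reached it elsewhere: 5 of 16 islet, 4 of 12 hedgehog, 4 of 19 adventitial fibroblast, 4 of 20 interferon and 2 of 4 erythroid genes. It was reached by 5 of 25 ribosome biogenesis, 3 of 24 mitosis, 1 of 26 DNA replication and 1 of 20 MAPK genes, by 3 of 22 collagen, 2 of 16 IGF axis and 2 of 23 chemokine genes, and by 1 of 17 in both the ductal and the mucous list. No acinar or muscle gene reached it (0 of 21 and 0 of 20). Members of a list share the same libraries and can vary together, so these counts describe and do not test. All lists were chosen with earlier results of these data known.

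The IGF axis, the theme of the series, held no called gene, where 0.0565% of all genes were called. IGF1 is a secreted growth factor that fibroblasts and macrophages can make, and IGF binding proteins hold it in tissue. Igf1 was 45.1, 36.6 and 38.1 in KrasT and 9.69 and 19.8 in MycT after doxycycline. The groups did not overlap, with means of 39.9 ± 4.56 (SD, n = 3) and 14.7 ± 7.14 (SD, n = 2), and the difference of 1.45 ± 0.33 (SE) did not pass (limma adjusted p = 0.289, unadjusted 0.00168). Both models had far less untreated, at most 1.09 in KrasT and 2.44 in MycT.

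Of 16 IGF axis genes tested, 0 were called, 4 were higher in KrasT without overlap and 1 in MycT, and the median was 0.32. It was 0.20 and 0.13 without MycT replicate 1 and 2. Of all genes, 12.0% were higher in KrasT and 14.9% in MycT without overlap. Besides Igf1, the binding protein genes Igfbp4, Igfbp5 and Igfbp7 were higher in KrasT. Igfbp4 was 791, 576 and 768 in KrasT and 193 and 452 in MycT. Igfbp5 was 109, 107 and 88.6 against 44.9 and 54.7. Stc2, an inhibitor of the protease that frees IGF1, was the member higher in MycT, at 10.4 and 4.81 against 2.46, 4.31 and 3.55. The receptor gene Igf1r overlapped, at 4.93, 3.69 and 3.62 in KrasT and 6.1 and 3.47 in MycT. Igf2, the other ligand, overlapped too, at 1.51, 6.17 and 1.99 against 2.72 and 0.537.

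Fibroblast and matrix genes leaned to KrasT. Of 22 collagen genes, 19 had a positive difference, with a median of 0.60 (0.35 without KrasT replicate 1) and 0 called. Without overlap 7 were higher in KrasT, beside 12.0% of all genes. Col1a1, a chain of the main fibrillar collagen, was 2018, 538 and 610 in KrasT and 218 and 389 in MycT, highest in KrasT replicate 1. Col6a2, of the pericellular collagen VI, was 351, 120 and 156 against 53.3 and 83.8. The exceptions were Col10a1 and Col17a1, higher in MycT without overlap, and Col7a1, which overlapped. Col10a1, the collagen of hypertrophic cartilage and activated fibroblasts, was 37.9 and 14.1 in MycT and at most 0.511 in KrasT.

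Among 19 adventitial fibroblast genes, 8 were higher in KrasT without overlap and 1, Ly6a, in MycT, with a median of 0.44 and 0 called. The median was 0.26 and 0.85 without KrasT replicate 1 and 2, and 0.19 and 0.87 without MycT replicate 1 and 2. Of all genes, 12.0% were higher in KrasT and 14.9% in MycT without overlap. Pi16, a marker of progenitor-like fibroblasts around vessels, was 147, 59.2 and 114 in KrasT and 16.6 and 33 in MycT. Gdf10, a TGF-beta family ligand, was 70.5, 26.3 and 106 against 15.2 and 17.6. Ly6a, the surface protein Sca-1 of fibroblasts and progenitors, was 851 and 487 in MycT and 141, 218 and 189 in KrasT.

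Hedgehog signalling, by which epithelial ligands act on pancreatic stroma, showed the same sign throughout. All 12 tested hedgehog genes had a positive difference, 5 without overlap beside 12.0% of all genes, with a median of 0.59 and 0 called. Gli1, the transcription factor and readout of the pathway, was 4.35, 17.2 and 18.2 in KrasT and 1.81 and 2.13 in MycT (2.05 ± 0.55 SE, limma adjusted p = 0.483). Gli2, its partner, was 2.95, 2.71 and 3.64 against 0.812 and 1.06. The receptor gene Ptch1, itself induced by the pathway, was 2.95, 8.9 and 6.14 against 1.33 and 2.06. Smo, the signal transducer, was 27.5, 27.8 and 27.2 against 19.7 and 17. Of the ligands, Dhh and Ihh were below 5 in all 5 libraries, and Shh did not pass the filter on low values.

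Most islet genes had a positive difference, but the islet sums of the models overlapped, at 7319, 181 and 2494 in KrasT and 38.6 and 818 in MycT. Of 16 islet genes tested, 15 had a positive difference, 6 of them without overlap, with a median of 1.97 and 0 called. The median was 1.13 without KrasT replicate 1 and 1.28 without MycT replicate 1. Of all genes, 12.0% were higher in KrasT without overlap. Sst, the hormone somatostatin, was 66.2, 20.5 and 119 in KrasT and 1.39 and 8.81 in MycT. Ppy, pancreatic polypeptide, was 41.7, 10.7 and 53.4 against 1.68 and 3.08, and Chgb, a granule protein, was 5.14, 4 and 7.24 against 0.319 and 0.278. KrasT replicate 2 was above both MycT libraries for these 3 genes (limma adjusted p = 0.267, 0.216 and 0.183). It was below MycT replicate 2 for Gcg, the hormone glucagon (0.728 against 16.9), Iapp, the amyloid peptide (0.32 against 14.8), and Ins2 (4.3 against 604).

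Haemoglobin genes also separated the models without passing. Hba-a2 was 63.6, 22.2 and 127 in KrasT and 0.3 and 0.0863 in MycT, and its near-identical copy Hba-a1 was 91.9, 164 and 498 against 18.9 and 48.7. All 4 erythroid genes tested were higher in KrasT without overlap, where 12.0% of all genes were, and the median of the 4 was 2.58. In untreated tumours Hba-a2 was 0.0122, 17.7 and 17.4 in KrasT and at most 0.0435 in MycT. Blood held in the piece was not measured apart from these genes.

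Interferon-stimulated and antigen presentation genes leaned to MycT. Interferons switch on these genes, and they raise MHC class I display on tumour and stromal cells. All 20 genes of the list had a negative difference after doxycycline, 18 of them without overlap where 14.9% of all genes were higher in MycT without overlap. The median was -1.46, and 0 were called. Over the 24 alternatives the median was -2.07 to -1.01. In untreated tumours the median of the list was already negative, at -0.89. The untreated sums overlapped, at 930, 910 and 883 in KrasT and 246 and 1509 in MycT.

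Tap1, the peptide transporter of class I presentation, was 12.6, 12.9 and 11.2 in KrasT and 44.8 and 42.7 in MycT, a difference of -1.76 ± 0.57 (SE, limma adjusted p = 0.661). Psmb9, an immunoproteasome subunit, was 32, 34.2 and 29.5 against 100.5 and 101. For both genes the libraries within each model were close and the models far apart. In the 2 untreated MycT libraries Tap1 was 0.601 and 6.5 and Psmb9 3.79 and 27.6. Neither gene was called in any of 24 alternatives (lowest limma adjusted p of 0.0683 and 0.117).

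Others of the list were more scattered. Gbp2, a guanylate-binding protein induced by interferon-gamma, was 19.7, 30.7 and 11.6 in KrasT and 78.9 and 54.4 in MycT. B2m, the light chain of class I molecules, was 1477, 623 and 548 against 2426 and 1922. Ifit3, an antiviral protein, was 12.4, 3.44 and 8.73 against 35.2 and 17.2. The 2 members that overlapped were Oas1a and Rsad2. MycT replicate 1 was the highest of the 5 doxycycline libraries for Gbp2, B2m and Ifit3.

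Promoters of Ifit3 and Gbp2 are shown because both genes belong to the list whose members all lay on 1 side and both hold its best-known motif. They are RefSeq windows of GRCm38.p6, 250 bases before to 50 after the gene start, at chr19:34583279-34583578 and chr3:142620413-142620712, both on the plus strand. Capitals mark the core of the interferon-stimulated response element, written as GAAA, any 2 bases and GAAA, searched on both strands, so that a match on the other strand reads TTTC, any 2 bases and TTTC.
Ifit3: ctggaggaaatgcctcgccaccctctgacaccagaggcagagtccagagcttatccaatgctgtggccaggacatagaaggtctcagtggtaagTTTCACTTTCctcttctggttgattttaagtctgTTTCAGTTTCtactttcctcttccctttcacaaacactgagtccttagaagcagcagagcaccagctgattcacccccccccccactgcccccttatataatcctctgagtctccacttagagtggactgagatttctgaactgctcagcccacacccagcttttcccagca
Gbp2: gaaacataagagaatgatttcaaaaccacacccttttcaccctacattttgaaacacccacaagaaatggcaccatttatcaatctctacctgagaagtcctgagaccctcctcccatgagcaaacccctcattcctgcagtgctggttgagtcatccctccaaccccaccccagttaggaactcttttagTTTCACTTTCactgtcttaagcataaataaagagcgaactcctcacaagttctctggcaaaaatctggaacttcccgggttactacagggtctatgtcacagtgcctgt
Ifit3 holds 2 matches and Gbp2 holds 1. Of 18 list members with an entry, 8 hold the motif (44.4%), where 3.44% of all promoters in the table do.

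Lymphocyte genes leaned the same way. The hosts lack a thymus, so few T cells mature in them, while natural killer and B cells develop. Of the T and NK cell list, 15 genes were in the data and 11 passed the filter on low values. A gene low in the other libraries could pass only through the 2 MycT doxycycline libraries, and its sign is then negative. All 11 had a negative difference, with a median of -1.02 (-1.69 without MycT replicate 2) and 0 called. Without overlap were 8 of them, where 14.9% of all genes were higher in MycT without overlap. Cd3e, a chain of the T cell receptor complex, was 0.668, 1.06 and 0.382 in KrasT and 6.07 and 2.39 in MycT. Ncr1, a receptor of natural killer cells, was 0.28, 0.713 and 0.748 against 2.22 and 1.87, and Gzma, a cytotoxic granule protease, was 1.11, 1.13 and 4.39 against 9.56 and 8.1. Their adjusted p values were 0.371, 0.402 and 0.446 (limma).

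Of 23 chemokine ligand genes, 12 were higher in MycT without overlap and 0 in KrasT, with a median of -0.83 and 0 called. Among all genes, 14.9% were higher in MycT and 12.0% in KrasT without overlap. Cxcl10, an interferon-induced attractant of T and NK cells, was 2.99, 12.7 and 2 in KrasT and 36.7 and 20.3 in MycT. Ccl5, another attractant of lymphocytes, was 17.6, 4.89 and 12.3 against 72.3 and 36.9. Cxcl13 was 7.43, 7.69 and 14.2 against 22.3 and 202, with the B cell gene Ms4a1 at 0.929, 0.399 and 2.6 against 3.59 and 13.9. Of 12 B and plasma cell genes, 0 were called, and 1 was higher in MycT and 1 in KrasT without overlap. That is no more than the shares of all genes. Genes of lymph node vessels and follicles, a list made after Glycam1 had been seen and so without weight as evidence, had 11 of 11 negative differences, 7 without overlap and Glycam1 called. Macrophage genes overlapped for 15 of 16, and Csf1r, the macrophage growth factor receptor, was 88.6, 25 and 51.9 in KrasT and 35.9 and 72.7 in MycT.

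Genes of stratified squamous epithelium, the layered lining of skin, mouth and forestomach, had wide differences after doxycycline, most of them negative. This list of 36 genes was drawn up after the values had been seen, so its counts describe and do not test. Of 32 tested, 29 were higher in MycT without overlap, beside 14.9% of all genes, with a median of -3.04. Krt5, a basal cell keratin, was 367 and 187 in MycT and is listed at 0 in all 3 KrasT doxycycline libraries. Krt14, its partner, was 871 and 377 in MycT and 0.122, 0.787 and 0.379 in KrasT. Trp63, the transcription factor of basal cells, was 16.5 and 4.58 against 0.252, 1.17 and 0.079.

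None of the 32 passed the test over all 10 libraries. Krt14 differed by -8.68 ± 1.48 (SE, limma adjusted p = 0.143). The 2 untreated MycT libraries were apart for these genes, with Krt5 listed at 0 in one and at 68.8 in the other, and Krt14 at 0.2 and 113. Untreated KrasT held RNA of the list too. Its sums were 151, 1051 and 693 in untreated KrasT and 188 and 1212 in untreated MycT, with a median difference of -0.54. Untreated, 3 genes of the list were called higher in KrasT and 3 in MycT, beside 9.16% and 11.7% of all genes. Fitted on the 5 doxycycline libraries alone, Krt5, Krt14, Col17a1 and Lypd3 were called, with limma adjusted p of 0.00568, 0.00792, 0.00621 and 0.0483. They were also called when either untreated MycT library was left out. Col17a1, a hemidesmosome collagen, was 42.9 and 31.4 in MycT and 0.069, 0.0796 and 0.0765 in KrasT (limma adjusted p = 0.0608 over all libraries). Pkp1, a desmosome protein, was 24.4 and 12 against 0.196, 0.0873 and 0.0653, and it was the list's member with a called interaction (-4.63, limma adjusted p = 0.0488).

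Simple ductal epithelium, by contrast, was in both models. Epcam, an epithelial adhesion protein, was 24.8, 202 and 129 in KrasT and 252 and 109 in MycT, and Krt19, the ductal keratin, was 35.1, 249 and 227 against 524 and 158. KrasT replicate 1 was the lowest of the 5 libraries for both. Of 17 ductal genes 0 were called, 1 was higher in KrasT without overlap and 2 in MycT, beside 12.0% and 14.9% of all genes. Spp1, the secreted osteopontin of ducts and macrophages, was the former, at 3999, 5265 and 3421 against 1529 and 2041. Cldn4, a tight junction claudin, was among the latter, at 123 and 99.1 against 7.51, 13.4 and 8.54. Squamous and ductal genes were thus measured in the same MycT pieces.

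Stomach-type mucous genes had differences of both signs, and none of the 17 tested was called. Without overlap, 4 were higher in KrasT and 2 in MycT, beside 12.0% and 14.9% of all genes. Tff2, a trefoil peptide of mucous neck cells, was 361, 1968 and 1438 in KrasT and 168 and 151 in MycT, and Gkn3, a gastrokine, was 259, 306 and 482 against 70.6 and 143. Reg3g, an antibacterial lectin of gut epithelium, was 1.7, 38.9 and 11.6 in KrasT and 236 and 109 in MycT, with the caution that Reg3 family genes are close copies. Lyz1, the Paneth cell lysozyme, was 151, 47.5 and 76.9 against 310 and 504.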

How the data were processed

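The authors deposited FPKM values per gene symbol in 1 table per tumour model. Per the submitters' processing notes, cutadapt, TopHat and the mm9 build were used; with versions, and the program that computed the FPKM, not given in the sources used here. Read counts are unknown, so no count model was used and precision rests on the libraries. The tables were joined by symbol after leaving out 27 of 23951 rows whose symbols had become dates. Values were scaled by the median ratio and genes at FPKM 1 or more in at least 2 of 10 libraries were kept. limma 3.58.1 (R 4.3.3) was fitted to log2(scaled FPKM + 1) of all 4 groups with a trend in the spread (6 residual degrees of freedom, Benjamini-Hochberg adjustment), and it was tested on simulated data. Contrasts were KrasT minus MycT after doxycycline, the same untreated, and the change between them. The pseudocount makes fold changes of low genes too small. The labels name 1 animal per library, and nothing says whether transplants of 1 model share a parent tumour.

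Genes were named by rule: the largest called differences on each side, the persisting ones, the largest called interactions, the leading genes of each list, the 8 widest single-library gaps at 20 FPKM or more, and the most abundant genes, without clone names. Further genes were picked with their values known, to illustrate lists. Members and lists were chosen with earlier results of these data known, and 3 of 58 lists were added after values were seen. The 24 alternatives changed scaling, pseudocount, filter, spread, weights or libraries. Promoters came from RefSeq. Python 3.11.15 drew the figures. Some genes of the lists are counted but not reported by name here.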

Additional observations from a re-analysis of the deposited data

Results flagged for a closer look

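For 20 of the named genes the KrasT minus MycT difference changed with doxycycline by a test of that change itself (limma interaction, adjusted p under 0.05, log2 scale). Some of them were named because this test called them, so the 20 carries no weight as a count. Of all genes tested, 136 (0.961%) passed it. Cpa3 would not have passed the filter on low values without the KrasT doxycycline libraries, nor Glycam1 without the MycT ones. The difference moved toward KrasT for the mast cell genes Tpsab1 (2.70) and Cpa3 (2.50). It moved toward MycT for Glycam1 (-2.66), Ankrd37 (-2.21) and the desmosome gene Pkp1 (-4.63).

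Genes high in untreated KrasT had a smaller or an opposite difference after doxycycline: Adamdec1 (-5.75), Hmga2 (-6.25), Prkg2 (-6.09), Synpr (-5.70) and Ptprn (-5.65), the MAPK output genes Dusp6 (-5.02), Etv4 (-4.94), Ier3 (-4.74), Emp1 (-3.25) and Spry2 (-3.00), and Myc (-4.32). Genes high in untreated MycT had a smaller difference after doxycycline: Bex1 (5.59), Guca2a (5.23), Prim1 (3.42) and Slc6a15 (3.36). Both contrasts compare the same 2 tables, and the part of the table in these values was not tested.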

How the results depend on the processing

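The count of 8 genes after doxycycline moved to 2 without scaling, 3 with a pseudocount of 0.1, 14 without a filter, 1 at a mean FPKM of at least 5, 112 with array weights, 1 without the 2 libraries of high Ckm, 1 with a term for high Rn45s and 14 with the median ratio over genes at FPKM 5 or more. Leaving out 1 library gave 0 to 32. The fit of the 5 doxycycline libraries called 7, none of them among the 8. The untreated count was 1687 without the high Ckm libraries and 1672 to 4493 with 1 library left out. The interaction count of 136 was 85 with quantile normalization, 22 with a pseudocount of 0.1, 42 when filtered on the doxycycline libraries, 40 at a mean FPKM of at least 5, 78 with robust eBayes, 84 without a trend, 1417 with array weights, 1 and 2 without the high Rn45s and high Ckm libraries, 69 with the Rn45s term, 59 with the ratio over genes at FPKM 5 or more, and 3 to 1600 with 1 library left out. The 4 persisting genes were 1 without scaling, 2 with a pseudocount of 0.1, 2 without a filter, 1 at a mean FPKM of at least 5, 28 with array weights, 1 without the high Ckm libraries, 1 with the Rn45s term and 0 to 22 with 1 library left out. The median r between models fell from 0.882 to 0.844 with a pseudocount of 0.1 and to 0.838 at a mean FPKM of at least 5. The causes were not tested.

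Tpsab1 was called in 21 of 24 alternatives, Cpa3 in 12 of 23, Cdh16 in 10 of 23, Glycam1 in 10 of 19, BC002163 in 10 of 24, Ankrd37 in 9 of 24, and Smpdl3b and 2210039B01Rik in 8 of 24. Settings in which a gene did not pass the filter are left out of these totals. Glycam1 passed it only through the MycT doxycycline libraries and Cdh16 only through the KrasT ones. Cpa3 would not have passed it without the KrasT doxycycline libraries. None of these 8 changed sign where it was tested. Small differences after doxycycline changed sign for 6 genes. Synpr became 0.0054 without scaling, 0.0061 with quantile normalization, 0.0162 without the high Rn45s libraries and -0.0802 to 0.0276 with 1 library left out (0.0088 without KrasT replicate 3). Ptprn became 0.255 without the high Rn45s libraries, 0.0013 with the Rn45s term and -0.958 to 0.563 with 1 library left out, the latter without MycT replicate 2. Prim1 was -0.485 to 0.0106 with 1 library left out, the latter without KrasT replicate 1, and Etv4 0.0181 without the high Rn45s libraries. Spry2 was -0.172 (without KrasT replicate 2) to 0.246 with 1 library left out, and -0.204 without the high Ckm libraries. Emp1 became -0.060 with array weights, -0.658 without the high Rn45s libraries, and -0.496 (without MycT replicate 2) to 0.616 with 1 library left out, with -0.0935 without KrasT replicate 1. The Rn45s, Ckm and FPKM 5 ratio settings, and those for r, were chosen after seeing the data. A group left with 1 library is assumed to vary like the others. No paired analysis was possible because the labels give animal numbers and no replicate numbers shared between groups.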
